A study of Bos taurus with 12 samples.

Results

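The miR-26 family was followed in small RNA libraries made from blood of 12 dairy cows of the Chinese Holstein breed. Its rows were found by name, as those called miR-26a, miR-26b or miR-26c once the species prefix, the arm, the copy number and the isoform suffix were taken off. This gave 6 distinct names on 8 of the 2183 rows of the table, out of 1981 distinct names. The rule uses names and no measured value. All 6 belonged to miR-26a or miR-26b, and miR-26c was not analysed here.

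The study set 6 heat resistant cows against 6 heat stressed cows, and assigned them by a principal component analysis of their rectal temperature and drop in milk yield. Each library was taken as 1 cow. The protocol text speaks of 9 libraries where 12 are listed, and how this bears on the 6 libraries of each group is not known. The labels give no age, lactation stage, diet or housing for either group, no other treatment, and no word on which fraction of the blood the RNA came from. The groups are classes of response within 1 breed, and the labels name no group kept cool. Libraries are numbered 1 to 6 within each group, and the cows behind the same number are not said to be related.

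miR-26 is an old vertebrate miRNA family. A miRNA is cut from a hairpin, and for miR-26 the strand from the 5' arm is the one loaded into Argonaute, while the 3' strand is mostly degraded. miR-26a and miR-26b share a seed and so a large part of their targets, among them EZH2, the methyltransferase of the Polycomb repressive complex, and LIN28B, a block on let-7 processing. MYC represses the family in human and mouse cells, and miR-26 in turn slows the cell cycle. The hairpins lie in introns of the CTDSP genes, which code for small phosphatases that act with REST and on RNA polymerase II and with which the miRNAs are made. In the cattle annotation (RefSeq, ARS-UCD2.0) MIR26A-1 lies within the span of CTDSPL, MIR26A-2 within CTDSP2 and MIR26B within CTDSP1, and MIR26C is entered at the same place as MIR26A-1.

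Total expected counts ran from 3992952 to 9813801 per library with each name counted once, and from 4395454 to 10601301 with repeat rows summed. Red cell miRNAs (miR-451, miR-486, miR-144), the lymphocyte miRNAs miR-150 and miR-342, myeloid miR-223 and platelet and endothelial miR-126 were all detected. Hepatocyte miR-122 ran from 9327 to 158426 CPM (counts scaled to a library total of 1e6, after TMM factors), with heat resistant libraries 1 and 2 far above the rest. Heat resistant library 4 stood apart from its group in red cell miRNAs, at a sum of 97827 CPM against 20217 to 27657 CPM in the other 5.

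miR-26a and miR-26b, the functional 5' strands, carried nearly all of the family, at 99.4% or more of its counts in every library. The mean share of the family was 1.67 ± 0.429% of counts among heat resistant libraries and 1.37 ± 0.366% among heat stressed ones (SD, n = 6 each) with each name counted once. With repeat rows summed, which adds the second row of miR-26a, it was 2.21 ± 0.541% and 1.78 ± 0.456% (SD, n = 6 each). Counted once, heat resistant shares had a lowest value of 1.08%, a median of 1.67% and a highest of 2.26%. Heat stressed shares had a lowest value of 0.866%, a median of 1.37% and a highest of 1.77%, so the groups overlapped over most of their range. Heat resistant library 4 and heat stressed library 4 were the lowest of their groups. A sum over the members was given no test. Among all names of a library counted once, miR-26b ranked between 23 and 38 by count and miR-26a between 29 and 44. With repeat rows summed the order turned, with miR-26a between 19 and 34 and miR-26b between 28 and 46.

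**Figure D1:**
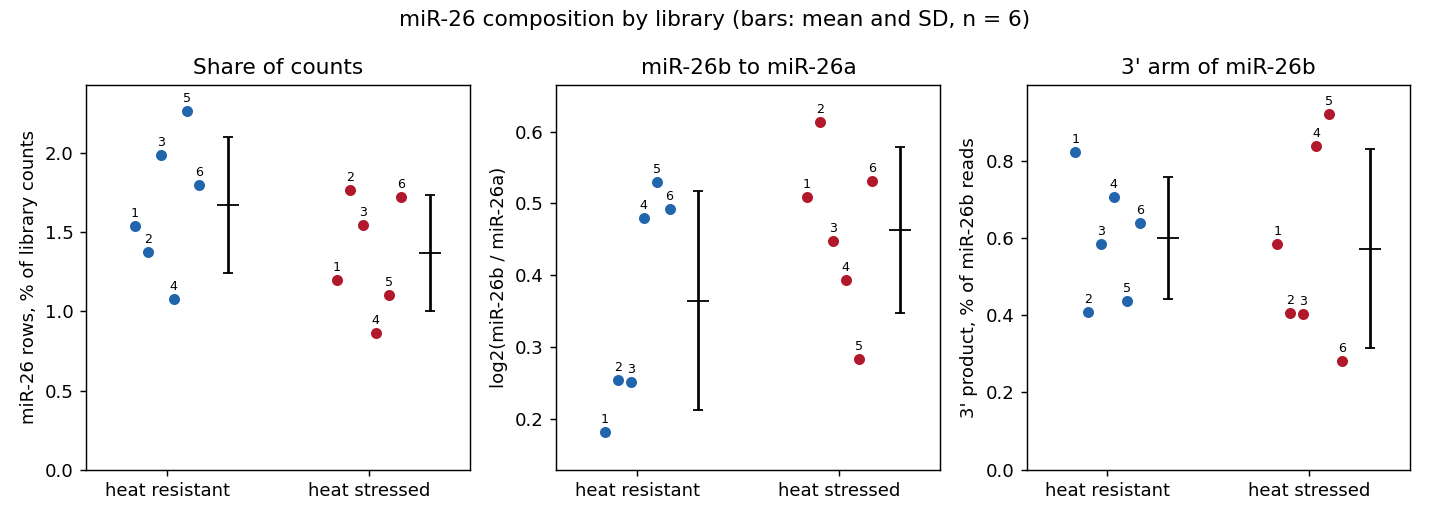
Share of library counts in the miR-26 rows (percent, left), log2 ratio of miR-26b to miR-26a (middle) and 3' product as a percent of miR-26b reads (right), by group. Points are libraries with their numbers, and bars give the mean and SD of 6. The groups overlap in all 3 panels. With each name counted once, the mean share is 1.67% for heat resistant and 1.37% for heat stressed cows.

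Counted once per name, miR-26b was the more abundant of the main forms, and with repeat rows summed miR-26a was. miR-26a stood on 2 rows with the same values and miR-26b on 1 row, and both were listed with fractional counts. miR-26a was whole (within 1e-06) in 0 of 12 libraries as deposited and in 4 after doubling, and miR-26b was whole in 4. The doubled miR-26a plus miR-26b was whole in all 12 libraries, and miR-26a plus miR-26b without doubling in 0. These are the values that reads divided equally over 3 places, 2 of miR-26a and 1 of miR-26b, would give. Part of the reads of miR-26a and miR-26b thus cannot be assigned to 1 of them, and the size of this part was not estimated. With each name counted once, miR-26b was above miR-26a in 12 of 12 libraries, by 1.13 to 1.53 times. Where reads are divided over rows, counting once leaves part of the reads of miR-26a out, and only the sum of its 2 rows holds them all. With that sum the order turned. miR-26a then made up 60.8 ± 2.50% of the sum of both for heat resistant cows and 59.2 ± 1.92% for heat stressed cows (SD, n = 6 each). Levels of miR-26a below are for 1 of its 2 rows.

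The other 4 names were minor forms. miR-26b-3p, the passenger strand of the miR-26b hairpin, was listed under a goat name and lay below miR-26a by 88.5 to 245 times. miR-26a-2-3p, the passenger strand of the second miR-26a hairpin, was listed under a mouse name and lay below miR-26b-3p by 3.68 to 36.1 times. miR-26a-2-5p, a tree shrew name on 2 rows, had counts above 0 in 5 heat resistant and 3 heat stressed libraries. miR-26a-1-3p, the passenger strand of the first miR-26a hairpin, had counts in 2 heat resistant libraries (numbers 4 and 5, with 5 and 6 counts) and in 0 heat stressed libraries. Counts of the last 2 forms never exceeded 7.5, which does not allow a comparison of the groups, and both fell below the filter on low counts (filterByExpr). By name, the passenger strands tell the hairpins apart where the mature strands of the miR-26a hairpins do not. Nearly all the 3' reads listed for miR-26a stood under the name of the second hairpin. Both 3' names of miR-26a come from other species with 1 base changed, and the cattle hairpin behind the reads was not checked.

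The functional strands had lower mean levels in heat stressed cows, and neither difference passed the test. In heat resistant libraries miR-26a had a lowest level of 4560 CPM, a median of 7467 CPM and a highest of 8735 CPM. In heat stressed libraries these were 3830, 5800 and 7172 CPM. All 6 heat stressed libraries were below the heat resistant median, and the groups overlapped because heat resistant libraries 2 and 4 lay among the heat stressed values. The means were 7198 ± 1579 CPM for heat resistant and 5705 ± 1259 CPM for heat stressed cows (SD, n = 6 each). The log2 fold change was -0.34 ± 0.18 (SE), with a 95% interval from -0.72 to 0.05 and an adjusted p of 0.308 (edgeR quasi-likelihood test, Benjamini-Hochberg over 756 features).

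miR-26b had a lowest level of 6356 CPM, a median of 9450 CPM and a highest of 12611.5 CPM in heat resistant libraries. In heat stressed libraries these were 5033, 8070 and 10360.5 CPM. Heat stressed libraries 2 and 6 were above the heat resistant median and the other 4 below it. The log2 fold change was -0.22 ± 0.20 (SE), with a 95% interval from -0.65 to 0.21 and an adjusted p of 0.565 (edgeR). The coefficient of variation among cows of a group was 21.9% and 22.1% for miR-26a and 23.9% and 27.8% for miR-26b in heat resistant and heat stressed cows. Over the 92 tested features with a mean above 1000 CPM its median was 20.4% and 16.3% in the same order.

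**Figure D2:**
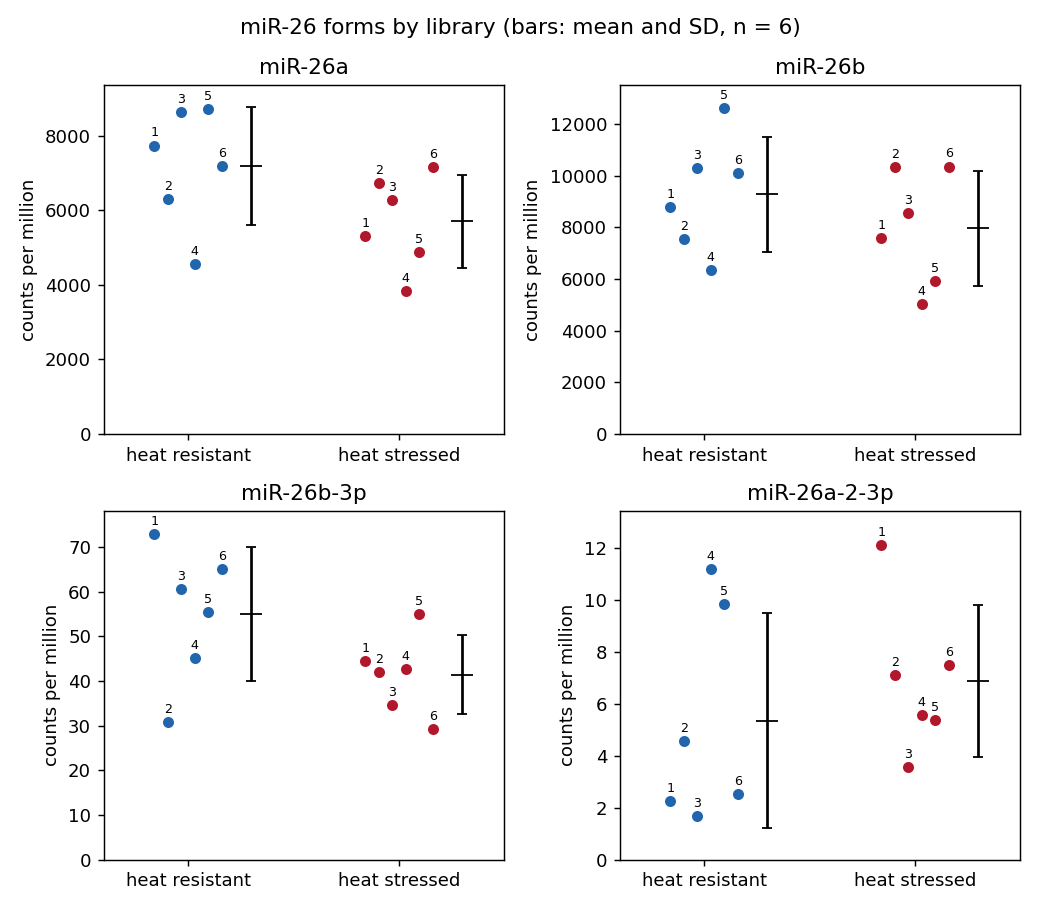
Level of the 4 tested miR-26 forms in CPM by group, with each vertical axis starting at 0. Points are libraries with their numbers, and bars give the mean and SD of 6. All 6 heat stressed libraries lie below the heat resistant median for miR-26a and miR-26b-3p and above it for miR-26a-2-3p. For miR-26a-2-3p heat stressed library 3 lies barely above that median, at 3.57 against 3.55 CPM. The groups overlap in all 4 panels.

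Neither of the passenger strands that could be tested passed either. miR-26b-3p had a lowest level of 30.9 CPM, a median of 58.0 CPM and a highest of 72.9 CPM in heat resistant libraries, and 29.3, 42.3 and 55.1 CPM in heat stressed libraries. Heat resistant library 2 was the low value of its group, and all 6 heat stressed libraries were below the heat resistant median. Its log2 fold change was -0.41 ± 0.21 (SE), with a 95% interval from -0.86 to 0.03 and an adjusted p of 0.283 (edgeR). miR-26a-2-3p had a lowest level of 1.68 CPM, a median of 3.55 CPM and a highest of 11.2 CPM in heat resistant libraries, and 3.57, 6.33 and 12.1 CPM in heat stressed libraries. It was the 1 tested form with a higher mean in heat stressed cows, and heat resistant libraries 4 and 5 were above 5 of the 6 heat stressed values. Its log2 fold change was 0.34 ± 0.46 (SE), with a 95% interval from -0.64 to 1.31 and an adjusted p of 0.715 (edgeR), on counts from 7 to 108 per library.

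Of the 4 tested forms, 3 had lower and 1 had higher values in heat stressed cows, where 50.3% of all 756 features had lower values. The median log2 fold change of the 4 was -0.28, against -0.00 over all features, and the 3 lower forms share reads or a hairpin. edgeR called 0 of the 4 and 0 of 756 features in all (0.0%) at an adjusted p under 0.05. At an unadjusted p under 0.05 it had 0 of the 4 and 146 of 756 features (19.3%). DESeq2 called 54 features (7.14%) and limma-voom 0, and none of the 4 was among either. In 8 of the 756 features (1.06%) the groups did not overlap, and 0 of the 4 was among these. The fraction of the blood that was used is not known, and fewer cells of a type and less of the miRNA per cell cannot be told apart.

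**Figure D3:**
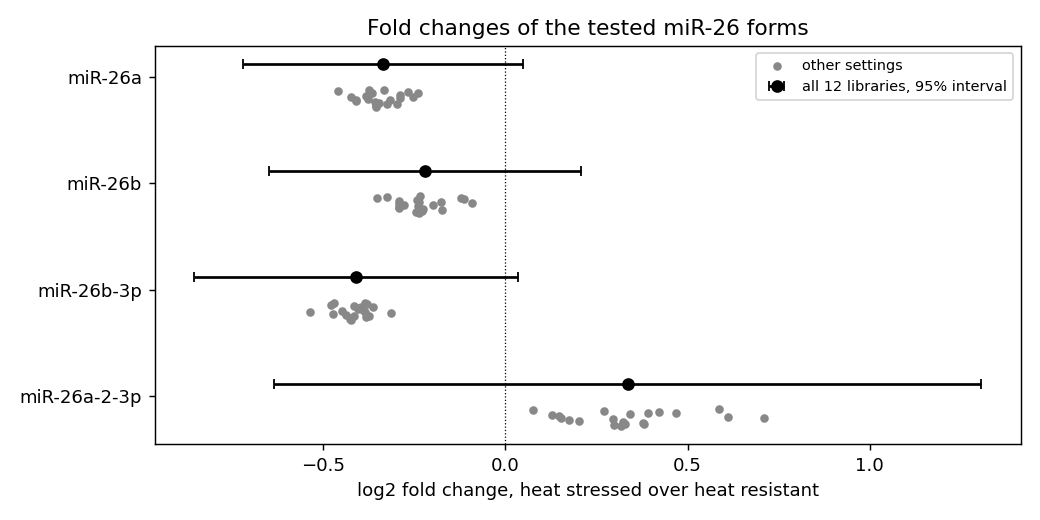
Log2 fold change of the 4 tested miR-26 forms, heat stressed over heat resistant. Black points with bars are the fit to all 12 libraries with its 95% interval, and grey points are the other settings tried (other scaling, filters and tools, and libraries left out). Every interval spans 0, and no grey point lies on the other side of 0 from its black point.

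The levels of the functional strands followed each other from cow to cow. Over the 12 libraries their levels had a Spearman rho of 0.86, with 0.94 within heat resistant cows and the same order of libraries for both within heat stressed cows. They share the scaling of the library and part of their reads, so this is given as a description. Neither functional strand followed its passenger strand in the same way. The rho of miR-26b with miR-26b-3p was 0.08 over all 12 libraries, 0.37 within heat resistant and -0.77 within heat stressed cows. That of miR-26a with miR-26a-2-3p was -0.39, -0.43 and 0.31 in the same order.

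The balance between miR-26b and miR-26a was compared within libraries, where no scaling between libraries enters. The log2 ratio of miR-26b to miR-26a had a mean of 0.36 ± 0.15 for heat resistant and 0.46 ± 0.12 for heat stressed cows (SD, n = 6 each). It ran from 0.18 to 0.53 in the former and from 0.28 to 0.61 in the latter. Heat resistant libraries 1, 2 and 3 had the lowest ratios of all 12 libraries, and heat stressed library 5 came next. The difference of 0.10 did not pass (2-sided exact permutation p = 0.236, where 0.00216 is the smallest the permutations can give). It was 0.02 without heat resistant libraries 1 and 2, the pair that was high in miR-122 (exact permutation p = 0.757).

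Use of the arms was read from a fit over 168 precursors with both arms, on log2 ratios of 5' to 3' counts with 2 added to each. Forms with no arm in their name were placed by a rule, so some ratios of other precursors may not compare their 2 arms. In heat resistant cows the mean ratio was -5.93 for let-7c beside 8.45 for let-7b. For miR-26b the ratio had a mean of 7.41 ± 0.39 for heat resistant and 7.56 ± 0.67 for heat stressed cows (SD, n = 6 each), a difference of 0.15 ± 0.30 (SE; limma adjusted p = 0.834). For miR-26a it was 10.57 ± 1.30 and 9.71 ± 0.65 (SD, n = 6 each), a difference of -0.86 ± 0.55 (SE; limma adjusted p = 0.432). limma called 0 of the 168 precursors (0.0%), of which 27 had an unadjusted p under 0.05. It called 7 of 168 without heat resistant library 4, 2 of 166 without heat stressed library 5 and 1 of 166 without heat stressed library 2. Neither miR-26 ratio was among them, and the adjusted p of the miR-26a ratio without heat resistant library 4 was 0.112. As a share of the reads of both arms, the 3' product of miR-26b made up 0.600 ± 0.159% for heat resistant and 0.573 ± 0.258% for heat stressed cows (SD, n = 6 each). In that order miR-26a-2-3p made up 0.0856 ± 0.0852% and 0.125 ± 0.0574% (SD, n = 6 each) of its sum with 1 of the 2 miR-26a rows. The 5' strand of miR-26a comes from both of its hairpins, so its ratio does not describe 1 of them. Its ratio and its share hold only 1 of the 2 equal miR-26a rows. With both rows the ratio would be higher and the 3' share lower.

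Red cell miRNAs had opposite values to miR-26a over the libraries. The summed level of miR-451, miR-486 and miR-144, the miRNAs of maturing red cells, ran from 20217 to 97827 CPM in heat resistant and from 26245 to 82286 CPM in heat stressed libraries. All 8 tested features of these 3 names had higher values in heat stressed cows, and 0 passed. Over all 756 features 50.3% had lower values and 0.0% were called. Against this sum miR-26a had a Pearson r of -0.84 and a Spearman rho of -0.78 over the 12 libraries. Each r here was taken on log levels. Within heat resistant cows the rho was -0.14 and within heat stressed cows -0.83. Without heat resistant library 4 and heat stressed library 4, the highest in red cell miRNAs, r was -0.71 and rho -0.62. For miR-26b r was -0.66 and rho -0.48 over the 12 libraries, with a rho of 0.03 within heat resistant and -0.83 within heat stressed cows, and r was -0.40 and rho -0.16 without those libraries. No p is given, since all values of a library are shares of 1 total. The part of red cells in the levels of miR-26 was not tested.

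**Figure D4:**
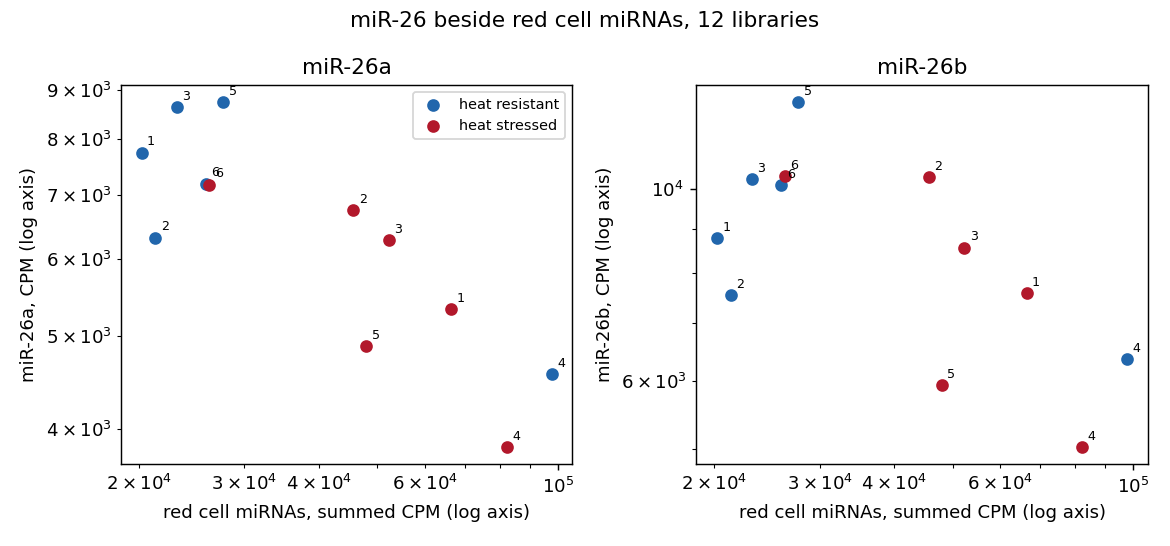
Level of miR-26a (left) and miR-26b (right) against the summed level of the red cell miRNAs miR-451, miR-486 and miR-144 in the same library, all in CPM on log axes. Points are the 12 libraries with their numbers, coloured by group. The 2 libraries highest in red cell miRNAs, heat resistant 4 and heat stressed 4, are the 2 lowest in miR-26a.

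Markers of other cells are given in the same way, and their part was not tested. The lymphocyte miRNAs miR-150 and miR-342 had sums of 3952 to 5704 CPM in heat resistant and 5404 to 12237 CPM in heat stressed libraries. All 6 tested features of these 2 names had higher values in heat stressed cows, beside 50.3% lower over all 756 features. edgeR called 0 of the 6, with a smallest adjusted p of 0.069. miR-342 had a rho of -0.66 with miR-26a and miR-150 one of -0.07. With miR-26b these were -0.38 and 0.06. The rho given next for other markers are with miR-26a unless miR-26b is named. For myeloid miR-223 the sums were 6143 to 10009 and 6717 to 12638 CPM and the rho of its main form was -0.11. For miR-126 of platelets and endothelium they were 4166 to 7023 and 2601 to 8830 CPM, and the rho was -0.24. Hepatocyte miR-122 and miR-885 summed to 18061 to 158557 and 9363 to 45597 CPM, with a rho of 0.05 for miR-122 and -0.36 for miR-885. Muscle miR-1, miR-133a, miR-133b and miR-206 summed to 87.4 to 728 and 118 to 775 CPM, with a rho between -0.21 and 0.10. Tested features higher and lower in heat stressed cows were 3 and 1 for miR-223 and 2 and 0 for miR-126. They were 2 and 3 for the hepatocyte names and 4 and 0 for the muscle names, with 0 calls (edgeR). With miR-26b the rho was 0.08 for miR-223, -0.32 for miR-126, -0.09 for miR-122 and -0.31 for miR-885. For the muscle names it was between -0.06 and 0.13.

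Outside the family, the cattle miRNAs most like miR-26a over the 12 libraries were miR-181d (rho 0.93), miR-652 (0.92), miR-103 (0.90), miR-7 (0.89) and miR-181b (0.88). The miR-181 family acts in lymphocyte development, miR-103 restrains Dicer and insulin signalling, and miR-7 acts in neuroendocrine cells. Mean levels for heat resistant and then heat stressed cows were 78.3 and 55.0 CPM for miR-181d, 1557 and 1008 CPM for miR-652, and 5967 and 4433 CPM for miR-103. Log2 fold changes were -0.51 ± 0.17, -0.63 ± 0.25 and -0.43 ± 0.20 (SE), and edgeR called none of them (adjusted p of 0.123, 0.186 and 0.246). Least like it were the 3' product of the miR-451 precursor (rho -0.91), miR-185 (-0.89), which is abundant in red cells, and miR-12030 (-0.87).

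Most like miR-26b were miR-374b (rho 0.96), miR-374a (0.84), miR-21-5p (0.83), miR-7 (0.81) and miR-7859 (0.81), of which only miR-7 was also among the 5 most like miR-26a. miR-374b had mean levels of 192 CPM for heat resistant and 165 CPM for heat stressed cows, with a log2 fold change of -0.22 ± 0.20 (SE; edgeR adjusted p = 0.567). miR-21-5p, which is induced in inflammation, stood at 96726 and 101009 CPM. Least like miR-26b were miR-12030 (rho -0.87), the 5' product of the miR-6524 precursor (-0.83) and a row named as a variant of miR-100 (-0.79). That row holds the values of miR-99a-5p in 12 of 12 libraries, so its reads cannot be assigned to 1 of the 2 names. These neighbours were taken from the features tested, and the rho describes these 12 libraries.

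Other miRNAs that MYC represses had higher and lower values in shares near those of all features. Of 46 tested features under 23 names of that list, 25 had higher and 21 lower values in heat stressed cows, with a median log2 fold change of 0.08 and 0 calls (edgeR). The 46 include both arms and variant rows of a name. Rows of miR-16a and miR-16b among the higher ones had the same means and log2 fold change (0.51), so the features are not all separate miRNAs. Over all 756 features 50.3% had lower values, the median was -0.00 and 0.0% were called. Its 3 most abundant members were let-7g, a restraint on RAS and on growth, miR-22 and miR-30e. Mean levels for heat resistant and then heat stressed cows were 37163 ± 4343 and 44451 ± 6370 CPM for let-7g, 31851 ± 4675 and 30826 ± 3172 CPM for miR-22, and 28276 ± 4058 and 28867 ± 3330 CPM for miR-30e (SD, n = 6 each). The fitted log2 fold changes of the same miRNAs were 0.26 ± 0.12, -0.05 ± 0.12 and 0.03 ± 0.12 (SE).

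Other miRNAs known to repress EZH2 had 3 higher and 3 lower features of 6, with 0 calls (edgeR), beside the same 50.3% lower and 0.0% called over all features. miR-101 had mean levels of 3286 ± 950 CPM for heat resistant and 4058 ± 243 CPM for heat stressed cows (SD, n = 6 each), with a log2 fold change of 0.30 ± 0.17 (SE; adjusted p = 0.310). In that order of groups miR-214 had 197 ± 28.0 and 199.9 ± 40.7 CPM, and miR-138 had 24.3 ± 4.58 and 19.6 ± 5.90 CPM (SD, n = 6 each). Their fitted log2 fold changes were 0.02 ± 0.16 and -0.31 ± 0.21 (SE). The mRNA of EZH2 was not measured.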

How the data were processed

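Small RNA was sequenced from blood of 12 cows (6 per group, by the group label). Per the labels' protocols, the authors extracted RNA with Trizol, made TruSeq small RNA libraries, sequenced them on an Illumina HiSeq and filtered reads with ACGT101-miR. Aligner, miRBase release and build: not given in the sources used here, so no coordinates are printed. The deposited raw columns are expected counts (estimated read counts per row, fractional where rows share reads). The deposited normalized columns are a signal equal to 1 constant per library times the raw values, and entered no test.

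Repeat rows of a name with the same values were counted once. The rounded expected counts went into edgeR 4.0.16 (R 4.3.3) with TMM factors, filterByExpr at a minimum count of 10 and the robust quasi-likelihood F test (2-sided, Benjamini-Hochberg at 0.05). SE was obtained from the fold change and the F statistic; CPM use TMM-adjusted totals. Arm ratios used limma 3.58.1 with a prior count of 2 and a mean of 10 counts in each arm; a form with no arm in its name was taken as the arm opposite its most abundant labelled form. The ratio of miR-26b to miR-26a was tested by exact permutation. DESeq2 1.42.0, limma-voom and other settings were alternatives. The scripts were tested on simulated data. Named miRNAs are all miR-26 rows, the 5 most and 3 least like miR-26a and miR-26b by Spearman rho, and the most abundant list members. The members and lists were chosen with earlier results of these data known. The p-values measure the spread between libraries, taken as 1 per cow.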

Additional observations from a re-analysis of the deposited data

How the results depend on the processing

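No miR-26 form was called, and none changed direction, in the alternatives in which it could be tested (21 to 23 for each of the 4 forms). The unadjusted p of miR-26a and miR-26b-3p fell under 0.05 in some of them. The lowest were 0.023 for miR-26a without heat resistant library 4 and 0.010 for miR-26b-3p without heat resistant library 2 (edgeR). In these settings 219 of 777 and 132 of 791 features had an unadjusted p under 0.05. With no filter, miR-26a-1-3p and miR-26a-2-5p were fitted as well. The former had an unadjusted p of 0.032 (edgeR, adjusted p = 0.151) on its counts in 2 heat resistant libraries. In that setting 571 of 1978 features had an unadjusted p under 0.05. Log2 fold changes ran from -0.46 to -0.24 for miR-26a (smallest adjusted p 0.107, without heat resistant library 4), from -0.35 to -0.09 for miR-26b, from -0.54 to -0.31 for miR-26b-3p and from 0.08 to 0.71 for miR-26a-2-3p. Over all features edgeR called 0, against 54 with DESeq2, 11 with no filter, 14 with a mean CPM of at least 10 and 13 with repeat rows summed. With 1 library left out it called between 0 and 97, with 97 without heat resistant library 4, 29 without heat stressed library 2 and 2 without heat resistant library 5; the cause was not tested. With the replicate number as a block it called 8, and the adjusted p of miR-26a was 0.207. Whether the numbers pair the cows is not known. The correlation of deviations within a number ran from -0.05 to 0.28. Libraries 3 and 4 of each group and heat stressed library 6 correlated best with their own number, and the others did not. With 1 library left out, the difference in the log2 ratio of miR-26b to miR-26a ran from 0.06 to 0.13, that in the arm ratio of miR-26a from -1.26 to -0.58 and that in the family share from -0.43 to -0.19 percentage points. The arm ratio of miR-26b ran from -0.03 to 0.31 and turned direction without heat stressed library 6 (-0.030). miR-26a-2-3p rests on few reads. Counts that near-identical rows share limit the split of miR-26a and miR-26b by an amount that was not estimated.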

Other observations

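A further row carried a miR-26 name without a letter, a 5' form listed under an opossum name, and was outside the rule. Its mean level was 9.74 ± 2.21 CPM for heat resistant and 7.08 ± 1.69 CPM for heat stressed cows (SD, n = 6 each), with a log2 fold change of -0.45 ± 0.22 (SE; edgeR adjusted p = 0.273).

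Lone large values were looked for within each group of 6 libraries in the 4 tested forms, the family share, the ratio of miR-26b to miR-26a and both arm ratios. None of the 16 sets of values held a library past Dixon's 95% critical value.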
